A study of Mus musculus with 50 samples.

Results

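The members described here are transcripts of collagens, laminins, fibronectin, nidogens, fibulins, the matricellular proteins Sparc and Spon1, and the secreted proteases and inhibitors that turn this matrix over. They were taken by gene symbol: Fn1, Sparc, Spon1, Nid1 or Nid2, or a symbol that starts with Col, Lama, Lamb, Lamc, Fbln, Mmp, Adamts or Timp and a digit, without Mmp9 and Timp1. The rule found 62 genes on 102 probes, of 9930 named genes and 20355 probes on the array. No probe is named for Nid1, and 25 of the 62 genes have more than 1 tested probe in testis. In testis 101 of the 102 probes were tested (61 genes, all but Mmp7), and in spinal cord 87 probes (53 genes).

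The samples are total RNA of wobbler (wr/wr) mice, each set on a 2-colour array beside wild-type (wt) RNA from that organ. The wr mutation is recessive and lies in Vps54, a subunit of a complex that tethers vesicles at the Golgi, and homozygous mice lose motor neurons while males form abnormal sperm heads. Testis RNA of 10 individual wr/wr mice was hybridised on 4 arrays each, and 3 wr/wr cord RNAs (pool1 and pool2, of 4 mice each, and the single mouse 5995) filled 10 further arrays. Each organ had 1 wild-type pool in the other channel. The 9 cord mice are among the 10 testis mice. The labels state neither age nor any treatment.

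Collagens are made as procollagen in the endoplasmic reticulum, hydroxylated, trimmed and cross-linked outside the cell. Fibrillar collagens build the interstitium, while type IV collagen, laminins and nidogens build basement membranes, the sheets under endothelium, around the seminiferous tubules and at the surface of the cord. Metalloproteases of the Mmp and Adamts families cut this matrix and Timp proteins inhibit them, and in the testis matrix is laid down jointly by Sertoli cells and peritubular cells.

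Values are log2 ratios, likely wr/wr over wild type, with each array centred on its median and both dye orientations averaged per RNA, as mean ± SD over RNAs. Log base and direction were read from the values and not from a stated method, and a reading as wild type over wr/wr would turn every sign. A reading as Cy5 over Cy3 on every array would turn only those with the mutant in Cy3. With it, 4 member probes were called higher in testis and 1 lower, none of the 10 calls described below held, and 949 of all probes were called in place of 2494. A probe was called when its limma adjusted p, over all probes tested in that organ, was under 0.05. One pool stands for the wild type, so the spread among wild-type mice is not in any p, and ratios hold no levels, so neither the abundance of a transcript nor the labelled organ was checked. Testis arrays held 19070 to 20189 values and cord arrays 18338 to 20034. The Cy5 and Cy3 arrays of 1 RNA correlated only at r of -0.185 to 0.118 in testis and of -0.143 to -0.0106 in cord (each a mean of the arrays of that dye). Vps54 has no named probe, so the mutated gene was not checked. In whole organs, fewer cells of a type and less RNA per cell cannot be told apart.

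Matrix transcripts as a whole lay about as close to wild type in the mutant testis as all tested probes did. The member probes called had mean ratios of -0.73 to 0.29. Of 101 member probes, 3 were called higher (2.97%, against 7.28% of all 20218 tested probes) and 7 lower (6.93%, against 5.06% of all). The members' median ratio was -0.0425 and that of all tested probes -0.0112. Ratios were below 0 for 68 member probes and above 0 for 33, and 90 of the 101 lay within 0.25 of 0. Taken without its sign, the median ratio was 0.099 for members and 0.0869 for all tested probes. The genes called higher were Sparc and Timp3, and those called lower Spon1, Fn1, Lama5, Col12a1, Col2a1, Adamts1 and Adamts16.

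Spon1 encodes F-spondin, a secreted adhesion protein first known from the floor plate of the embryonic cord. Its probe 20005 had ratios of -0.93, -0.92, -0.92, -0.83, -0.82, -0.79, -0.77, -0.72, -0.32 and -0.26 in the 10 wr/wr testes. All 10 were below 0, and mice 6493 (-0.32) and 6065 (-0.26) stood apart from the other 8. The mean was -0.73 ± 0.24 (SD, n = 10), which is 0.604 of the wild-type pool, with an adjusted p of 0.000721 in limma's fit. The Cy5 arrays gave -0.76 and the Cy3 arrays -0.69 (named by the dye of the mutant), and it was called under 20 of the 21 alternatives run on the testis. The exception is the reading as Cy5 over Cy3, where it was at -0.04 (limma adjusted p of 0.705).

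The other Spon1 probes did not share this size. Probe 16581 had a mean of -0.11 ± 0.10 (below 0 in 9 of 10 mice) and probe 16651 one of 0.15 ± 0.20 (above 0 in 8 of 10), and neither was called (limma adjusted p of 0.0693 and 0.131). Averaged over its 3 probes, Spon1 was at -0.23 with an adjusted p of 0.0128 in limma's fit. The files do not say which transcripts the probes detect, and why they differ was not tested.

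Sparc encodes osteonectin, a collagen-binding glycoprotein that Sertoli cells and stromal cells secrete. Probe 11087 had its lowest ratio, -0.10, in mouse 5905, a median of 0.29 and its highest, 0.80, in mouse 5995. It was above 0 in 9 of 10 wr/wr testes. Its mean was 0.29 ± 0.23 (1.23-fold, n = 10) with an adjusted p of 0.0258 in limma's fit, a call lost in the Cy3 arrays (0.168) and without mouse 5907 (0.0545), 6335 (0.0538) or 6493 (0.0604). Probe 5137 had a mean of 0.28 ± 0.28 (1.21-fold), above 0 in 8 of 10 mice, and was called at an adjusted p of 0.0473 that was lost on leaving out mouse 5995 (0.0817) and most other mice. The remaining probe, 8471, was at 0.17 ± 0.23 and was not called, but the mean of the 3 Sparc probes was called at 0.25 (limma adjusted p of 0.0455).

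Timp3 encodes the inhibitor of metalloproteases that binds to the matrix itself. Its probe 503 ranged over the 10 mice from a lowest ratio of 0.12 (mouse 5997) to a highest of 0.54 (mouse 5995), with a median of 0.20. It was the only member probe above 0 in 10 of 10 mice (1 of 95 members with values in every mouse, 1.05%, against 3.44% of all such probes). The mean was 0.28 ± 0.16 (1.22-fold) with an adjusted p of 0.0134 in limma's fit, and it was alike in both orientations, 0.26 in Cy5 and 0.30 in Cy3. Probes 453, 447 and 515 of the same gene were at 0.13 ± 0.20, 0.04 ± 0.16 and -0.13 ± 0.46, and none of these was called. Averaged over its 4 probes, Timp3 was at 0.08 and not called (limma adjusted p of 0.329). Timp2, a soluble inhibitor, was at -0.01 ± 0.27 and -0.08 ± 0.09 on its 2 probes, and none of the 3 probes of Timp4 was called.

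**Figure D1:**
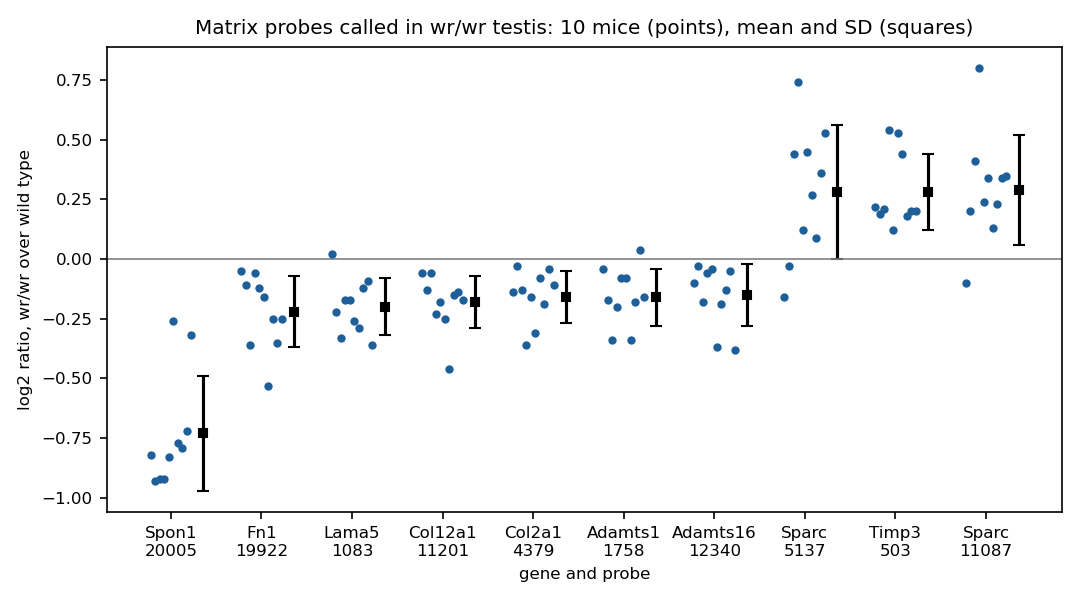
Testis log2 ratios of wr/wr over wild type (vertical axis) for the 10 called member probes (horizontal axis, gene and probe). Points are the 10 mice, squares the mean with SD as bars. All 10 points of Spon1 20005 lie below 0, with 2 of them, at -0.32 and -0.26, apart from the rest.

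Fibronectin, the dimeric glycoprotein that links integrins to collagen, was measured by 5 Fn1 probes. Probe 19922 had a lowest ratio of -0.53, a median of -0.20 and a highest of -0.05. It was below 0 in 10 of 10 testes. Its mean of -0.22 ± 0.15 had an adjusted p of 0.0204 in limma's fit, with -0.23 in Cy5 and -0.22 in Cy3. The call was lost in the Cy3 arrays alone (0.0834), without mouse 6493 (0.0511) and with the Fn1 probes averaged (-0.09, limma adjusted p of 0.12). The other Fn1 probes were at -0.16 ± 0.49 (1347), -0.06 ± 0.15 (18348), -0.03 ± 0.17 (3995) and 0.02 ± 0.11 (1795), and none was called. Nid2, a nidogen that ties laminin to type IV collagen, was at -0.05 ± 0.17, and Fbln7, a fibulin, at -0.12 ± 0.11 (limma adjusted p of 0.0655).

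Lama5, the alpha 5 chain of laminins in mature basement membranes, was the only called laminin. That is 1 of 9 laminin probes (11.1%, against 5.06% of all probes called lower). The ratios of its probe 1083 ran from -0.36 to 0.02 with a median of -0.20, below 0 in 9 of 10 mice. The mean was -0.20 ± 0.12 (limma adjusted p of 0.0178), made of -0.35 in the Cy5 arrays and -0.04 in the Cy3 arrays. In the Cy3 arrays alone it was not called (limma adjusted p of 0.643). The 7 tested laminin genes had 9 probes with a median of -0.0086, and Lama1, Lama4, Lamb2 and Lamc3 lay between -0.06 and 0.03. Lama3 was at -0.12 ± 0.47, and Lamc1 at -0.0086 ± 0.15 (7567), 0.02 ± 0.86 (18038) and -0.14 ± 0.16 (18428, limma adjusted p of 0.0872).

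Among the collagens tested in testis (10 fibrillar, 3 basement membrane and 14 other genes), 2 were called, each on 1 probe and with a small negative ratio. That is 1 of 20 fibrillar probes (5%) and 1 of 20 other collagen probes (5%), against 5.06% of all probes called lower. None was called higher, against 7.28% of all. Col12a1, which coats collagen fibrils, was at -0.18 ± 0.11 on probe 11201 (limma adjusted p of 0.0202), below 0 in 10 of 10 mice, with mouse 6069 lowest at -0.46. Its other probe, 19838, was at -0.08 ± 0.34 and ranged from -0.54 to 0.74. Col2a1, the fibrillar collagen of cartilage, was at -0.16 ± 0.11 on probe 4379 (limma adjusted p of 0.0264), also below 0 in 10 of 10 mice, while its probe 19751 was at -0.10 ± 0.26. Both calls were lost when the probes of a gene were averaged. They were also lost in the Cy3 arrays alone, at -0.13 for Col12a1 and -0.09 for Col2a1 (limma adjusted p of 0.423 and 0.315). In those arrays 8 of 10 mice were below 0 for Col12a1 and 6 of 10 for Col2a1. The Cy5 arrays alone did not call Col12a1 either (limma adjusted p of 0.0536). With Spon1, Fn1 and Adamts16, these make 5 of 95 member probes below 0 in all 10 mice (5.26%, against 3.25% of all such probes). The 3 basement membrane collagens Col4a1, Col4a2 and Col18a1 had no called probe, and their 7 probes lay between -0.10 and 0.12.

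Of 20 protease probes (16 genes) in testis, 2 were called lower (10%, against 5.06% of all probes) and 0 higher (against 7.28%). Adamts1, which cleaves the proteoglycans versican and aggrecan, had ratios from -0.34 to 0.04 with a median of -0.17, and a mean of -0.16 ± 0.12 (limma adjusted p of 0.0345). Adamts16, a secreted metalloprotease of the same family, was below 0 in all 10 mice on probe 12340, at -0.15 ± 0.13 (limma adjusted p of 0.0394). Its other probe, 16055, was at -0.10 ± 0.09 and not called. Each of these calls rested on the full set of mice: that of Adamts16 was lost on leaving out any of 9 of the 10 mice, and that of Adamts1 on leaving out any of 6. In the Cy3 arrays alone neither was called, at -0.10 for Adamts1 and -0.07 for Adamts16 (limma adjusted p of 0.456 and 0.51). There, 6 of 10 mice were below 0 on each of these probes. None of the tested matrix metalloproteases (Mmp) was called. Mmp12 (-0.92 ± 3.90) and Adamts12 (0.47 ± 1.61) hold deposited ratios over 10 in size, read here as a channel at its floor, and their means rest on these.

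**Figure D2:**
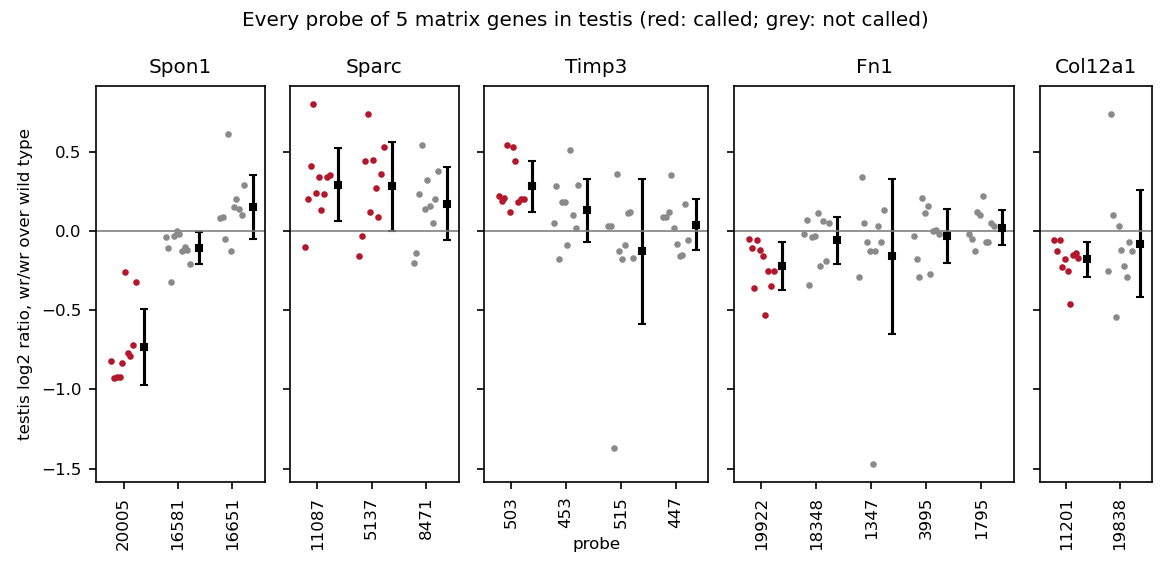
Testis log2 ratios (vertical axis) for every probe (horizontal axis) of Spon1, Sparc, Timp3, Fn1 and Col12a1, with points for the 10 mice, red where the probe was called, and squares with SD bars for the mean. The 3 Sparc probes lie together above 0, at 0.29, 0.28 and 0.17, whereas those of Spon1 spread from -0.73 to 0.15.

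Probes of 1 gene thus often went apart. Of the 25 genes with several tested probes in testis, 15 had all probe means on 1 side of 0, and 7 had a call. None of the 7 had every probe called. These counts were not made for the other genes of the array, so whether matrix genes differ from them in this is not known. The call lists therefore name probes rather than genes, apart from Sparc, Spon1 and Adamts16, whose probe averages were also called.

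For the transcripts of interstitial collagen, the SD over the mutant mice exceeded the mean ratio on every probe. This SD includes array noise, and it also exceeded the mean on other uncalled members, such as Lama1 (-0.0079 ± 0.17) and Timp2 16306 (-0.01 ± 0.27). Col1a1 and Col1a2, the chains of type I collagen, and Col3a1, the type III chain, were not called on any of their 7 probes. With the 3 Sparc probes they shared the mouse of the highest ratio. Mouse 5995 had the highest ratio of the 10 on 10 of these 10 probes, with a median of 0.74 over them. Mouse 5905 had the lowest on 7 of the 10, with a median of -0.22. That mouse was lowest on 11.9% of all member probes and on 7.46% of all tested probes. The order of the other mice differed between probes, with mouse 5907 at 0.46 on Col1a2 3130 and lowest on Col1a2 18404 (-0.34). Col3a1 (probe 19481, 0.28 ± 0.47) was at 1.21 in mouse 5995 and at -0.45 in mouse 5905, and Col1a2 on probe 19482 (0.31 ± 0.50) at 1.30 and -0.34. These 4 genes were set together after their values were seen. Over all 101 member probes, mouse 5995 was highest on 35 (34.7%, against 15.2% of all tested probes), and its member median of 0.0413 was the only one above 0 among the 10 mice. In that testis the fibroblast marker list had a median of -0.01, pericytes and smooth muscle 0.17, and Sertoli cells 0.37, the last 2 the highest of the 10 mice, while germ cell markers were lowest there at -0.29. Whether cell content has a part in the high ratios of mouse 5995 was not tested.

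**Figure D3:**
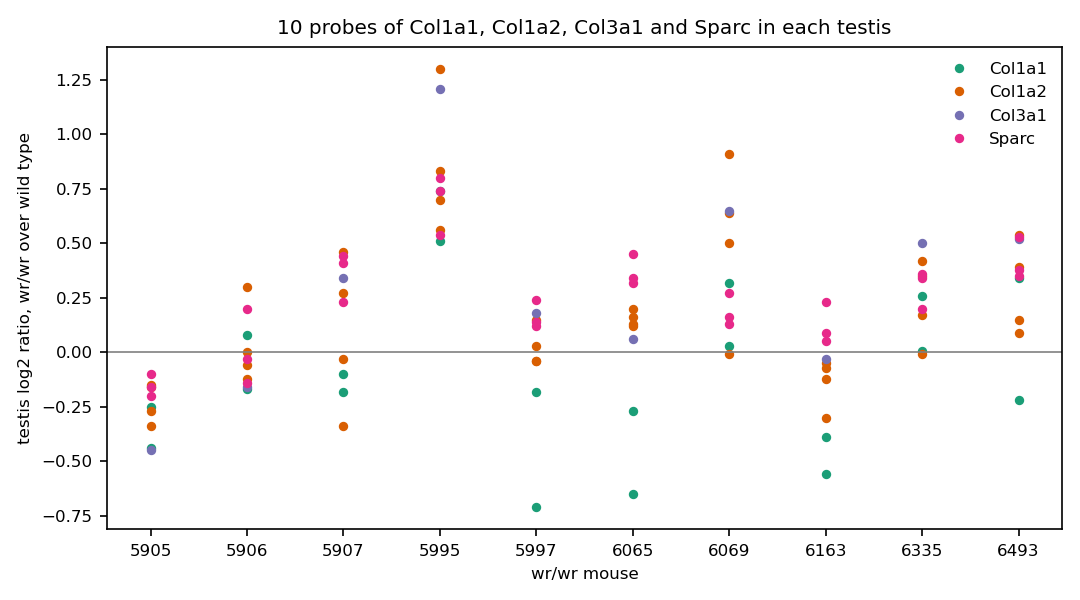
Testis log2 ratios (vertical axis) of the 10 probes of Col1a1, Col1a2, Col3a1 and Sparc in each wr/wr mouse (horizontal axis), coloured by gene. In mouse 5995 all 10 points lie above 0.5, and in mouse 5905 all lie below 0.

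Markers of other testis cells were read beside these ratios, against 5.06% of all probes called lower and 7.28% higher. Leydig cell markers had a median of -0.27 with 4 of 7 probes lower and 0 higher, and the 10 mouse medians ran from -0.48 to -0.02. Sertoli cell markers had a median of 0.20 with 5 of 10 probes higher, and mouse medians from -0.03 to 0.37. Endothelial markers had a median of -0.07 (2 of 18 probes lower), fibroblast markers -0.09 (2 of 12 lower), pericyte and smooth muscle markers 0.0085 (1 of 12 lower), and macrophage markers -0.06 (4 of 10 lower). Their part in the matrix ratios was not tested. A group of testis probes follows Itih2, which itself ranged from -4.33 in mouse 5907 to -0.23 in mouse 5905, and 3.96% of member probes correlated with it at r of 0.8 or more over the 10 mice, against 3.93% of all probes. Adamts1 (Pearson r = 0.792) and Lama5 (r = 0.658) varied with it over the mice, and Spon1 20005 (r = 0.184) and Timp3 503 (r = -0.119) did not. Of their other probes, Spon1 16581 (r = 0.783) and Timp3 515 (r = 0.83) did. Spon1 16651 (r = 0.0512) and Timp3 447 (r = -0.0937) and 453 (r = 0.177) did not. Timp3 515, like Itih2, was lowest in mouse 5907 (-1.37), and 1 such mouse weighs heavily in an r. These r describe 10 mice that share 1 wild-type pool.

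Outside the members, 28 probes of 17 collagen processing genes had a median of -0.04 in testis, and 5 were called lower (17.9%, against 5.06% of all probes) and 1 higher (3.57%, against 7.28%). Plod1, a lysyl hydroxylase of procollagen, was at -0.53 ± 0.34 on probe 19508 (limma adjusted p of 0.0162), below 0 in 9 of 10 mice, while its probes 3713 (-0.10 ± 0.28) and 18434 (-0.14 ± 0.21) were not called. Pcolce, which speeds removal of the procollagen C-propeptide, was called on both probes, at -0.26 ± 0.11 on 1492 (limma adjusted p of 0.00887) and -0.16 ± 0.14 on 3553 (0.0384), each below 0 in all 10. P4ha2, a subunit of prolyl hydroxylase, was at -0.20 ± 0.08, and Loxl1, a cross-linking oxidase, at -0.20 ± 0.13 on probe 12627 (2351 was at -0.33 ± 0.65 and not called), while Colgalt1, which adds galactose to collagen, was higher at 0.16 ± 0.12. Over all 121 tested probes of the matrix pathway lists (85 genes), 10 were lower and 4 higher, 11.6% in all, against 12.3% of all probes, with a median of -0.03. Ecm1, a secreted matrix glycoprotein, had the smallest p of them at -0.33 ± 0.13 (limma adjusted p of 0.00502). Itgb1, the beta 1 integrin that binds collagen and laminin with its partners, was called higher on 1 of 6 probes, 19297, at 0.26 ± 0.21, with the others between -0.08 and 0.19. Bsg 19908 (0.18 ± 0.08) and Smoc2 3334 (0.21 ± 0.17) were called higher and Gpc6 2518 (-0.22 ± 0.19) lower (limma adjusted p of 0.0141, 0.0325 and 0.0321). Their other probes, Bsg 11339 (0.10 ± 0.12), Smoc2 19253 (0.09 ± 0.14) and Gpc6 1439 (-0.20 ± 0.45), were not called.

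In the spinal cord no member passed the test, and the smallest p-values among members belonged to type IV collagen, with negative means on all of its probes. Of 87 member probes, 0 were called higher (against 0% of all 17055 probes) and 0 lower (against 0% of all). An unadjusted limma p under 0.05 was reached by 4 member probes (4.6%) and by 8.65% of all probes, and the fit on single arrays called 1 member (1.15%, against 2.12% of all probes). The members' median was -0.0369 and that of all probes -0.00317, and 46 member probes were below 0 and 41 above.

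Col4a1 and Col4a2 encode the chains of the commonest type IV collagen, the network of vascular basement membranes. Their genes stand head to head on chromosome 8, and the RefSeq promoter windows, which reach across each annotated start, overlap by 78 bases. They are printed because both genes gave negative cord ratios, in build GRCm38.p6, with Col4a1 on the minus strand at chr8:11312777-11313076 and Col4a2 on the plus strand at chr8:11312555-11312854. Capitals mark matches to CCAAT and GGGCGG on either strand.
Col4a1: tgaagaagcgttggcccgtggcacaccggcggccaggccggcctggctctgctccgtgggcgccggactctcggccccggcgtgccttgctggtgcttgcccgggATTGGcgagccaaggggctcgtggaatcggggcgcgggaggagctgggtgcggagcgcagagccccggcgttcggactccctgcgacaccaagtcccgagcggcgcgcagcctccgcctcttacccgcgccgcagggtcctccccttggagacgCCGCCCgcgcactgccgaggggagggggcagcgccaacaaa
Col4a2: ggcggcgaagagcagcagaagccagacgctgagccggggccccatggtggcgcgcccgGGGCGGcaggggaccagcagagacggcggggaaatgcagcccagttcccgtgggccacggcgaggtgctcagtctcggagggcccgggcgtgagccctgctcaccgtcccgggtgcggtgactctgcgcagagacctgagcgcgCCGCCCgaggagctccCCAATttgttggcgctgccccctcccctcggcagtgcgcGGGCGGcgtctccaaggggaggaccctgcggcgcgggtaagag
The windows are 74% and 73.7% G or C, against a median of 52.7% over 32851 RefSeq promoters. CCAAT was found in 37.4% and GGGCGG in 35.7% of all promoters, and in 36.7% and 57.1% of the 49 promoter windows of 42 member genes. No match to TATAAA lies in either window, and 13.6% of all promoters hold one. These matches describe letters and no binding was measured.

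Col4a1 probe 19383 was at -0.32 in pool1, -0.38 in pool2 and -0.46 in the cord of mouse 5995, a mean of -0.39 ± 0.07 (SD, n = 3). Probe 19618 of the same gene was at -0.64, -0.57 and -0.28, and probe 19384 at -0.24, -0.96 and -1.08. Every RNA was below 0 on these 3 probes. On the remaining Col4a1 probe, 8611, pool1 (0.06) and pool2 (0.22) were above 0, and the mean of -0.46 ± 1.04 came from mouse 5995 (-1.65), where the Cy5 array gave -4.21 and the Cy3 array 0.91. Col4a2 was at -0.25 in pool1, -0.34 in pool2 and -0.75 in mouse 5995, a mean of -0.45 ± 0.27, which is 0.733 of the wild-type pool. The adjusted p in limma's fit was 0.542 for Col4a2 and for the first 3 Col4a1 probes, and 0.673 for probe 8611. The fit on single arrays, which counts 10 arrays, called Col4a1 probe 19383 lower (-0.37, limma adjusted p of 0.0184).

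Col4a1 and Col4a2 gave 3 member probes below 0 in all 3 RNAs and in both dye orientations (3.45% of members, against 4.19% of all probes). The Cy3 means were the larger ones, -0.52 and -0.79 for Col4a1 19383 and 19618 and -0.62 for Col4a2, against -0.26, -0.21 and -0.28 in Cy5. Col18a1, the source of endostatin in vessel walls, did not share these ratios, at 0.20 ± 0.24 and -0.04 ± 0.36. Endothelial markers had a median of -0.13 over 15 cord probes, with 9 below 0 and none called, and RNA medians of 0.05 in pool1, -0.03 in pool2 and -0.21 in mouse 5995. Pericyte and smooth muscle markers had a median of 0.09, astrocyte markers 0.26 and microglia markers 0.63, with no probe called. Their part in the type IV collagen ratios was not tested.

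**Figure D4:**
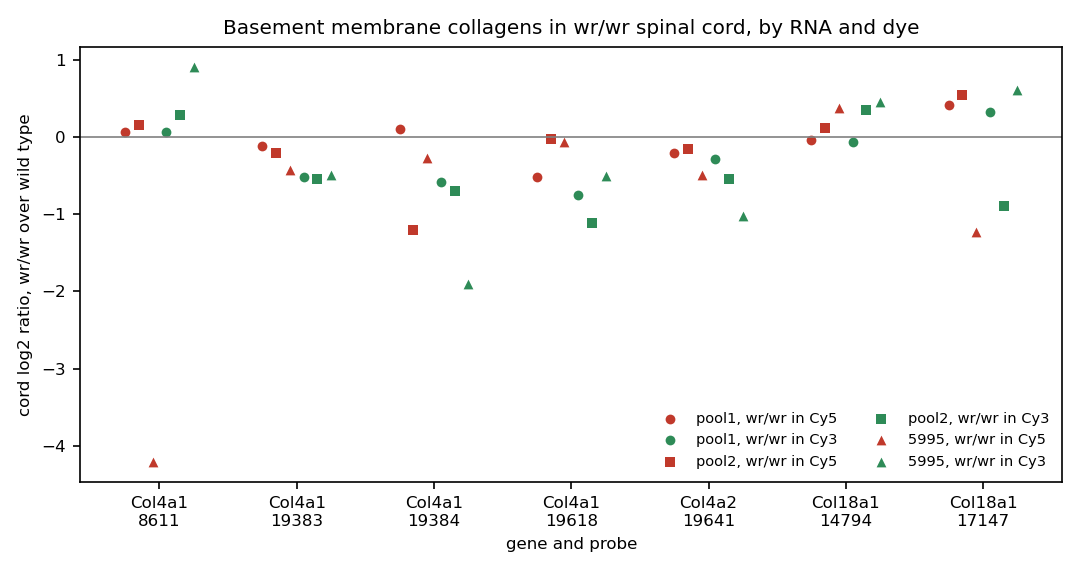
Cord log2 ratios (vertical axis) of the Col4a1, Col4a2 and Col18a1 probes (horizontal axis) for pool1, pool2 and mouse 5995, in red with the wr/wr RNA in Cy5 and in green with it in Cy3. All 6 points of Col4a1 19383 and 19618 and of Col4a2 lie below 0, and 1 point of Col4a1 8611 lies at -4.21.

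Other cord members were less even. The only member above 0 in all 3 RNAs and both orientations was probe 17664 of Col9a3, a chain of cartilage type IX collagen, at 0.29 ± 0.23 (1.15% of members, against 3.79% of all probes). Another Col9a3 probe, 8236, was at -0.34 ± 0.30. Spon1 probe 20005 was at -0.28, -0.22 and -0.57 (mean -0.36 ± 0.19, limma adjusted p of 0.542), the same sign as in testis. Its mean was -0.15 in Cy5 and -0.57 in Cy3, and Spon1 probes 16581 and 16651 were at -0.17 ± 0.14 and -0.07 ± 0.19. The 3 Sparc probes were at 0.14 ± 0.15, 0.16 ± 0.16 and 0.11 ± 0.26, and Timp3 503 at 0.26 ± 0.09, above 0 in all 3 RNAs, again with no call. The Sparc means were 0.26, 0.60 and 0.20 in Cy5 but 0.02, -0.29 and 0.02 in Cy3, and those of Timp3 503 were 0.47 and 0.04. Timp3 probes 453, 447 and 515 were at -0.15 ± 0.22, -0.06 ± 0.23 and 0.12 ± 0.32. Averaged over its probes, Timp3 was at 0.04 (limma adjusted p of 0.866). Nid2 had the most negative mean, -1.27 ± 2.62, which rests on 1 array of pool2 with a floor value of -16.1, and without such values it was 0.05. Col6a2 was at -0.54 ± 0.55 on probe 1536 and -0.06 ± 0.19 on 19514. Timp4 was at -0.31 ± 0.20 on probe 19919, 0.31 ± 0.66 on 3579 and -0.08 ± 0.53 on 19966. Averaged over its probes, Timp4 was at -0.03 (limma adjusted p of 0.952). Mmp24, a membrane-bound protease of neurons, was at -0.28 ± 0.13, made of 0.06 in Cy5 and -0.63 in Cy3. Col5a3 was at 0.36 ± 0.23, and Adamts17 at 0.25 ± 0.15 on probe 2251 and 0.02 ± 0.18 on 9882. Col26a1 was at 0.87 ± 0.96 (-0.21 in Cy5 and 1.95 in Cy3), and Lamc3, a gamma chain of laminins, at 0.26 ± 0.22 (-0.10 in Cy5 and 0.61 in Cy3).

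The matrix pathway lists had 0 of 105 cord probes called and a median of 0.04. Pcolce, lower in testis, was at 0.60 ± 0.13 in cord with 3 of 3 RNAs above 0 and an adjusted p of 0.542 in limma's fit. Loxl3, a lysyl oxidase homologue, was at 0.46 ± 0.17 on probe 1651 and 0.05 ± 0.13 on 4906. The Sparc relative Smoc2 was at 0.38 ± 0.12 on probe 3334, made of -0.16 in Cy5 and 0.92 in Cy3, and at 0.06 ± 0.11 on 19253. On the negative side, the brain matrix proteins Bcan (-0.48 ± 0.29), Spock2 (-0.47 ± 0.30) and Hapln2 (-0.44 ± 0.21) were each below 0 in 3 of 3 RNAs.

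How far the organs differ was tested as testis minus cord over 13 RNAs with 1 pooled spread, to which the testis gives 10 RNAs and the cord 3. Of 87 member probes, 4 had a higher ratio in testis (4.6%, against 10.8% of all probes) and 9 a lower one (10.3%, against 10.4% of all). In a limma fit that pairs every cord RNA to testes from the same animals, 0 were higher and 0 lower, among members as among all 16983 probes. An unadjusted p under 0.05 was then reached by 7 member probes (8.05%) and by 12.7% of all probes. The differences below are therefore called only in the unpaired fit, and the paired fit rests on 3 differences. Values on cord arrays spread more widely than on testis arrays (typical median absolute deviation of 0.352, against 0.174). A pooled spread set mostly by testis can thus be too narrow for the cord means, and p-values of the unpaired fit too small.

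Among the called probes, Col4a1 19384 had the largest difference, at 0.12 ± 0.27 in testis and -0.76 ± 0.46 in cord, a difference of 0.88 (limma adjusted p of 0.00898, and 0.391 in the paired fit). Col4a2 was at -0.08 ± 0.13 in testis and -0.45 ± 0.27 in cord, a difference of 0.37 (limma adjusted p of 0.0329) that was 0.22 and not called without the cord of mouse 5995 (adjusted p of 0.172). Fn1 probe 19922 was at -0.22 ± 0.15 in testis and 0.26 ± 0.23 in cord, a difference of -0.49 (limma adjusted p of 0.0117). Its cord ratios were 0.07, 0.20 and 0.52, all above 0, where the 10 testis ratios were all below 0. Fn1 probes 1795, 18348, 3995 and 1347 did not share this, with differences of 0.06, 0.20, 0.0096 and -0.31, none called. With the Fn1 probes averaged, the difference was -0.11 and not called (limma adjusted p of 0.378). Without the cord of mouse 5995, that of Fn1 19922 was -0.36 and not called (limma adjusted p of 0.0591). Col5a3, a minor fibrillar chain, was at -0.14 ± 0.16 in testis and 0.36 ± 0.23 in cord (difference -0.50, limma adjusted p of 0.0114). In the Cy3 or the Cy5 arrays alone its difference was -0.51 or -0.49 and not called (limma adjusted p of 0.186 and 0.34). Col12a1 11201 and Col2a1 4379, both lower in testis, were at 0.11 ± 0.05 and 0.36 ± 0.49 in cord, with differences of -0.29 and -0.52. Without the cord of mouse 5995, Col12a1 and Col2a1 differed by -0.28 and -0.24, neither called (limma adjusted p of 0.0676 and 0.106). Their other probes had differences of 0.36 (Col12a1 19838, -0.44 in cord) and 0.54 (Col2a1 19751, -0.64 in cord), neither called, and with probes averaged the differences were 0.09 and 0.01. The cord ratio of Fbln7 was 0.27 ± 0.27, made of -0.69 in Cy5 and 1.22 in Cy3, and that of Adamts17 2251 was made of -0.64 and 1.15, so that their differences of -0.38 and -0.41 turn to 0.45 and 0.43 in the Cy5 arrays alone. Sparc, Timp3 503 and Spon1 20005 had no called difference between the organs.

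**Figure D5:**
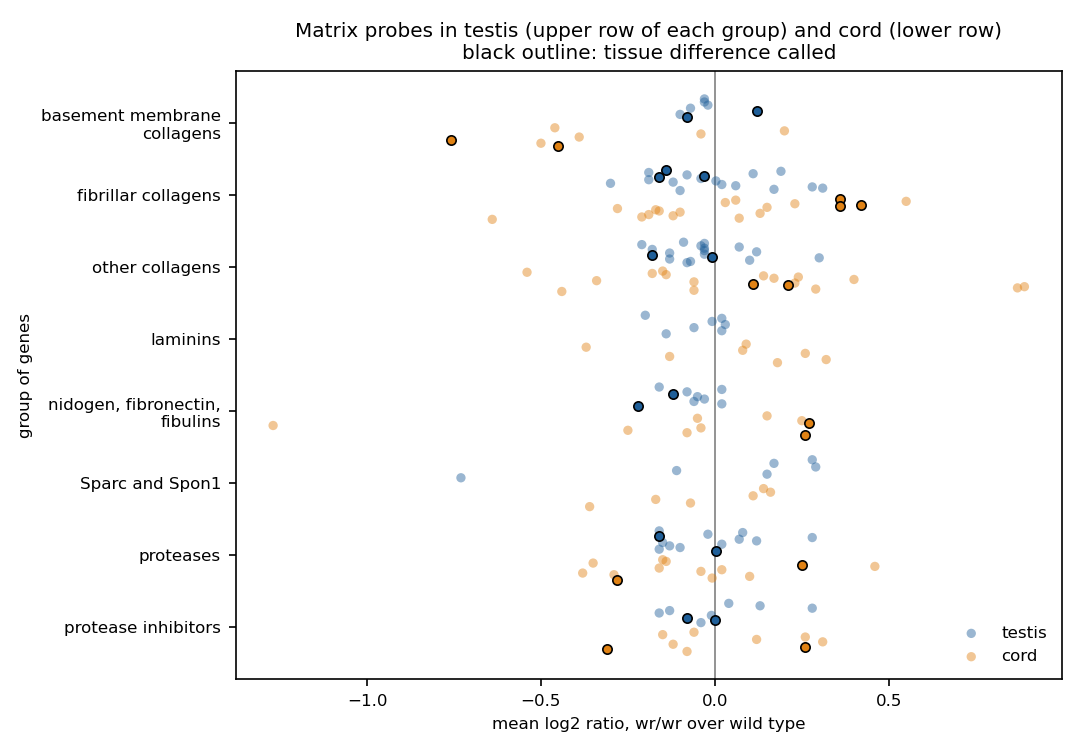
Mean log2 ratios of wr/wr over wild type (horizontal axis) for the 87 member probes tested in both organs, by group of genes (vertical axis), with testis in the upper and cord in the lower row of each group. Black outlines mark the 13 probes with a called difference; the cord means spread more widely than the testis means.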

How the data were processed

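The authors deposited 1 table with a log2 ratio per probe and array, for 50 arrays of 2 dyes; the sources used here do not give their normalization or filters, and the log2 base and the direction were read from the values. Per the labels' protocols, RNA was column-purified and the cDNA labelled indirectly, and every RNA has as many arrays in Cy5 as in Cy3. The labels list 10 wild-type mice per pool, and the labelling protocol gives 6. Of 20355 probes, 14030 carry 1 gene symbol in the platform annotation, 5 several and 6320 none, and all 102 member symbols are current by RefSeq.

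Each array was centred on its median, arrays of 1 dye were averaged per RNA, and the dye means averaged. Probes needed both dyes in at least 8 of 10 testis mice or in all 3 cord RNAs. Ratios were tested against 0, two-sided, with limma 3.58.1 (lmFit, eBayes) in R 4.3.3 and Benjamini-Hochberg adjustment over all tested probes, and the fits were tested on simulated data. The replicates are separate mice in testis, while cord pools count as 1 RNA each. The number of arrays and of RNAs limits the precision. Cord and testis RNAs are paired by animal, per the labels. Deviations from the organ means, taken over probes, correlated between a cord RNA and the testes of its mice at r of -0.00867 for pool1, 0.00547 for pool2 and 0.00842 for mouse 5995. Ratios over 10 in size were kept.

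Named members are the called probes (at most 20 in testis, and for the organ difference the 10 with the smallest p where more were called), in cord the 8 positive and 8 negative probes with the smallest p, all probes of Spon1, Sparc, Fn1 and Nid2, and the other probes of named genes. Pathway genes are those called in testis, at most 10, and 3 of each sign in cord. Members and lists were chosen with earlier results of these data known. Alternatives covered dye, centring, floor values, filters, probe averaging, single arrays, a robust fit, the sign reading, pairing and each RNA left out. For named members the sign reading and robust fit were added after seeing the data. A set without mice 5905, 5997 and 6065, whose dye orientations correlate below 0, was added likewise.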

Additional observations from a re-analysis of the deposited data

Results flagged for a closer look

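Among 24 groups of mouse values tested with Dixon's criterion, 6 had 1 mouse far from the other 9, where chance gives about 1 in 20. In testis these were Col12a1 probe 11201 in mouse 6069 (-0.46), Col12a1 probe 19838 in mouse 5906 (0.74), Fn1 probe 1347 in mouse 6065 (-1.47), Timp3 probe 515 in mouse 5907 (-1.37), Adamts16 probe 16055 in mouse 5997 (0.13) and Col2a1 probe 19751 in mouse 6065 (-0.69). Col12a1 probe 11201 is the only one of them that was called.

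A difference between testis and cord was called for 13 member probes, by the limma contrast with 1 pooled spread and without pairing. Testis minus cord was above 0 for Col4a1 probe 19384 (0.88), Col4a2 (0.37), Timp4 probe 19919 (0.31) and Mmp24 (0.28). It was below 0 for Col2a1 probe 4379 (-0.52), Col5a3 (-0.50), Fn1 probe 19922 (-0.49), Col27a1 probe 4164 (-0.45), Adamts17 probe 2251 (-0.41), Fbln7 (-0.38), Timp2 probe 18062 (-0.34), Col12a1 probe 11201 (-0.29) and Col9a3 probe 13398 (-0.22). Timp2 falls outside the rule for named genes and is given because it was counted. None of the 13 was called with the cord RNAs paired with the testes of the same mice.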

How the results depend on the processing

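Of 10 testis calls, Spon1 probe 20005 held under 20 of 21 alternatives. With ratios read as Cy5 over Cy3 no call held, and Timp3 503 reversed (-0.02). Of the member counts in testis, 3 higher became 6 in Cy5 arrays, 1 with probes averaged, 10 with single arrays and 1 to 3 with a mouse left out; 7 lower became 2 in Cy3 arrays, 4 with probes averaged, 1 with ratios read as Cy5 over Cy3, 11 with single arrays and 3 to 8 with a mouse left out. The 3 lower were left without mouse 6493 and 4 without mouse 6163; 1 higher was left without mouse 5907, 6335 or 6493. The testis member median moved to -0.0854 in Cy5 arrays. In cord, 1 member was lower with single arrays, and the median was 0.0223 in Cy3 arrays, -0.0953 in Cy5 arrays, -0.00783 with probes averaged, -0.00337 with single arrays and -0.00988 to 0.0116 with an RNA left out. For the organ difference, 4 higher became 7 in Cy3 arrays, 8 with single arrays, 0 in the paired fit (replicate block) and 2 to 5 with an RNA left out; 9 lower became 2 in Cy5 arrays, 3 with probes averaged, 5 without mice 5905, 5997 and 6065, 0 in the paired fit and 5 to 11 with an RNA left out (5 without the cord of mouse 5995). Single differences reversed for Fbln7 (0.45) and Adamts17 (0.43) in Cy5 arrays, and for Col12a1 (0.09), Col2a1 (0.01) and Col9a3 (0.01) with probes averaged; the cause was not tested. The paired fit rests on 3 differences. Centring, floor values, a robust fit and stricter or looser filters changed no call among named members. Without intensities, signal over background is unknown. In all other alternatives, the counts of members stayed within 1.5 times.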
